A study of Mus musculus musculus x Mus musculus castaneus with 8 samples.

Results

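Tail fibroblasts treated with VX680 alone were compared with the untreated cells of the series, using the 2 VX680 and the 2 untreated libraries out of 8 in the series. The libraries were taken by the names of their columns in the gene count table, which lists 24421 genes, and every gene with enough reads entered the test, 12643 in all. The animal was a female F1 hybrid of the subspecies Mus musculus musculus and Mus musculus castaneus, as the organism label names them, and its alleles (called mus and cas) can be told apart in reads that cover a variant. All groups were grown for 72 h on a 15 cm plate with drugs added 24 h after plating, and total RNA was made into libraries that mark strand by dUTP. Untreated medium received DMSO, with its volume matched across conditions; the other groups received VX680, 5azadC (5-aza-2'-deoxycytidine, which blocks DNA methylation) or both, and no dose is given in the labels. The 5azadC libraries are used below for 1 comparison of the 2 single drugs. Per its title, the series asked about DNA methylation and Aurora kinases in reactivation of the silent X chromosome. Nothing in the labels says that replicates came from separate cultures, so p-values measure only the spread between these libraries.

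Aurora kinases drive cell division. Aurora A acts at centrosomes and spindle poles together with its activator Tpx2, and Aurora B acts at centromeres and at the division furrow in a complex with Incenp, Birc5 (survivin) and Cdca8 (borealin). VX680, also called tozasertib, inhibits both kinases. Cells that pass through mitosis without Aurora activity often fail to divide and become polyploid, and p53 then commonly induces p21, the product of Cdkn1a, which stops the cell cycle. In female cells, the noncoding RNA Xist coats and silences one X chromosome.

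The 4 libraries held between 7209664 and 11169532 reads in genes, of which 26.3% to 26.7% could be assigned to an allele. Within the untreated pair 292 genes, and within the VX680 pair 203 genes, were at least 2-fold apart. The 5azadC pair, used for 1 comparison below, agreed less well, with 577 such genes. Vim, the intermediate filament vimentin and a fibroblast marker, stood at 3558 and 4072 CPM (read counts scaled to the size of each library) in untreated cells and 5774 and 5842 CPM with VX680. Of 9 fibroblast markers tested, 6 fell (Fap, Pdgfra, Col1a1, Col1a2, Dcn and Pdgfrb) and 3 rose (Vim, S100a4 and Thy1). Fap (143 and 47 reads to 8 and 5) and the untested marker Lum (21 and 8 reads to 1 and 6) were low in the VX680 libraries, and the summed level of the list went from 26660 and 30848 CPM to 13008 and 13461 CPM. Of 8 leukocyte markers, Ptprc, Adgre1 and Cd3e had no read in any of these libraries, Cd68 rose (57 and 35 reads to 140 and 110), Lyz2 fell (151 and 70 reads to 70 and 41), and the summed level was 23.4 and 21.0 CPM in untreated and 23.1 and 25.2 CPM in VX680 libraries. In the keratinocyte list 1 of 8 markers passed the filter on low counts. The simple-epithelium markers with enough reads numbered 5, of which 4 were higher (Krt19, St14, Krt18 and Krt7). The summed level of these 5 went from 0.725 and 2.49 CPM to 31.5 and 34.0 CPM. St14 and Krt18 had 0 reads in both untreated libraries, so they passed the filter only through treated libraries and could not fall. Of 5 endothelial markers tested 4 rose, and the list summed to 126 and 143 CPM in untreated cells and 198 and 196 CPM with VX680, with Cdh5 and Kdr at 0 reads in untreated cells and at most 3 reads in a VX680 library. Leaving out untreated replicate 1 gave 2 epithelial rises, leaving out either VX680 replicate gave 3, and leaving out untreated replicate 1, untreated replicate 2 or VX680 replicate 2 gave 2 endothelial rises. The part of other cell types in the results was not tested. In bulk RNA, fewer cells of a type and less RNA per cell cannot be told apart.

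Genes changed with VX680 in about equal numbers in each direction. At an adjusted p under 0.05 (edgeR quasi-likelihood test, Benjamini-Hochberg over the 12643 genes), 3005 genes were higher with VX680 (23.8%) and 2829 lower (22.4%), together 46.1%. At 2-fold or more, 1109 genes were higher (8.77%) and 826 lower (6.53%). The median log2 fold change over all genes tested was 0.009. With the authors' own scaling and limma the median was 0.118 and the split moved to 3646 higher and 2144 lower, so that 63.0% of calls were higher in place of 51.5%. No gene called in both fits changed direction.

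**Figure D1:**
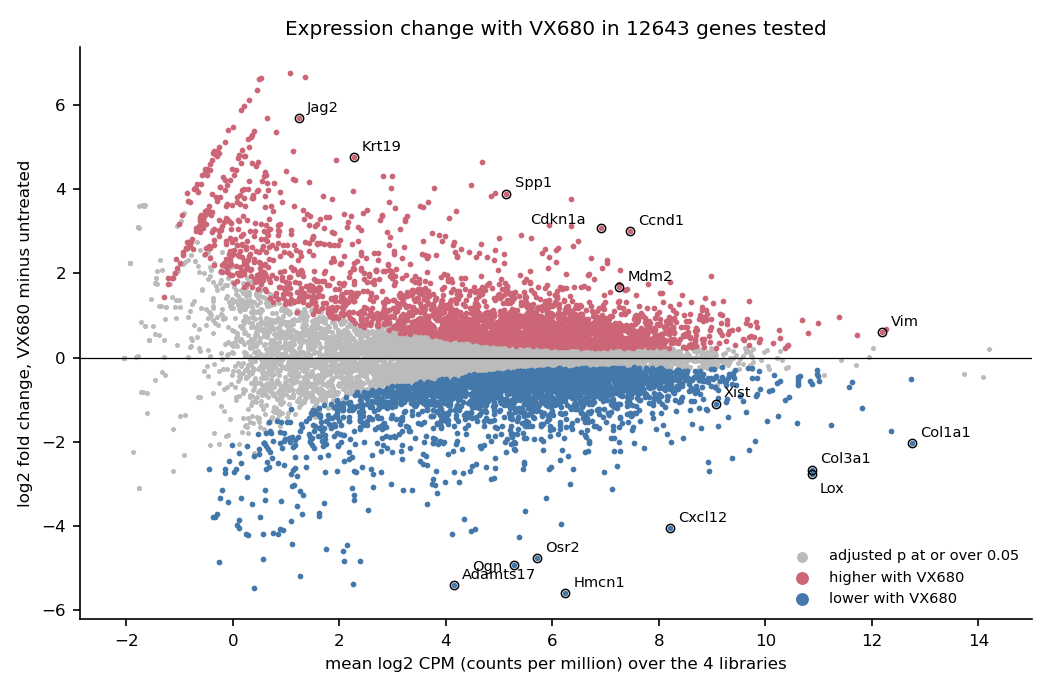
Log2 fold change (VX680 minus untreated, vertical axis) against mean log2 CPM over the 4 libraries (horizontal axis) for the 12643 genes tested, red where higher and blue where lower at an adjusted p under 0.05; genes with 0 reads in a group are drawn at the bound computed against 3 counts. Hmcn1, Ogn and Cxcl12 lie far below the line at high expression, while Cdkn1a, Ccnd1 and Spp1 lie far above it.

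The rises with the smallest p included Tnfrsf12a, the receptor for the cytokine TWEAK, at 27.8 and 27.3 CPM in untreated and 242 and 236 CPM in VX680 libraries, a log2 fold change of 3.11 ± 0.10 (SE; edgeR adjusted p = 1.54e-10). Ankrd1, a nuclear ankyrin-repeat protein and YAP target, went from 7.797 and 7.48 CPM to 114 and 117 CPM. For the transcription factor gene Maff the levels were 6.35 and 4.104 CPM and 97.99 and 86.4 CPM, and for the annexin gene Anxa3 26.7 and 29.2 CPM and 166 and 174 CPM. Genes named by rank were chosen among those whose groups did not overlap, so this separation is a condition of the ranking and not a result. A ranking by small p also favours genes whose replicates lie close together, so that closeness is not a result either. Among the falls, Cxcl12, a chemokine made by stromal cells, dropped from 1216 and 1193 CPM to 75.6 and 70.05 CPM (-4.05 ± 0.10, edgeR adjusted p = 1.98e-11). The matrix and adhesion genes Svep1 (1259 and 1254 CPM to 198 and 188 CPM) and Fat4 (1195 and 1113 CPM to 212 and 201 CPM) and the transcription factor gene Maf (225 and 229 CPM to 31.3 and 25.4 CPM) followed. Bmf, which encodes a BCL2-binding death activator, went from 103 and 87.4 CPM to 6.28 and 4.93 CPM. For the falls, too, the ranking admitted only genes whose groups did not overlap.

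By size of change, several of the first rises were genes nearly silent in untreated cells. Serpinb9b, a serpin of the granzyme-inhibitor clade, had 2 reads in both untreated libraries together and 242 with VX680, a ratio of 122 (95% counting interval 33.4 to 1014), and Acsbg1, a fatty acyl-CoA synthetase, had 3 and 330, a ratio of 111 (37.6 to 541). Jag2, a Notch ligand, went from 0.272 and 0.147 CPM to 12.96 and 11.5 CPM (5.68 ± 0.40). The epithelial keratin genes Krt80 (0.0907 and 0.586 CPM to 7.85 and 10.1 CPM) and Krt19 (0.544 and 1.17 CPM to 21.7 and 21.97 CPM) were among them. So were Cck, which encodes the hormone cholecystokinin (4.69), Il1rl1, the interleukin-33 receptor (4.62 and 5.42 CPM to 124 and 124 CPM), the RNA-binding protein gene Rbm47 (4.32), Coch (4.30), Clec2h (4.24), the forkhead factor gene Foxl1 (4.21) and Atg9b (4.17), all log2 fold changes. Apart from Il1rl1, these 12 genes stood at no more than 1.81 CPM in any untreated library and reached at least 6.09 CPM in every VX680 library.

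Among the first 12 falls, Hmcn1 (hemicentin-1, a basement membrane protein) went from 528 and 513 CPM to 10.6 and 11.1 CPM (-5.59 ± 0.34, edgeR adjusted p = 3.97e-08). Ogn, which encodes the small proteoglycan osteoglycin, went from 240.0 and 181 CPM to 7.17 and 6.79 CPM, and Osr2, an odd-skipped transcription factor gene of connective tissue, from 274 and 267 CPM to 10.2 and 9.72 CPM. In each of these the untreated libraries lay far above both treated ones, though groups that do not overlap were a condition of the ranking. The others were Adamts17 (-5.40), the microfibril gene Mfap4 (-5.37), Adamtsl1 (-5.19), Sncaip (-4.83), Apod (-4.82), the imprinted gene Mest (-4.59), Olfml2a (-4.55), the potassium channel gene Kcnk3 (-4.44) and Ptchd1 (-4.43).

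Aurka itself, which encodes Aurora A, was about 2-fold higher in cells given the inhibitor, at 92.8 and 79.4 CPM in untreated libraries and 173 and 179 CPM with VX680 (1.02 ± 0.10, edgeR adjusted p = 2.97e-06). Aurkb, for Aurora B, stood at 104 and 86.9 CPM and 112 and 116 CPM and did not pass the test (0.25 ± 0.10, edgeR adjusted p = 0.0663), and Aurkc had no read in any of the 4 libraries. Of the 11 tested Aurora kinases and partners, 7 rose and 1 fell, with a median log2 fold change of 0.43. Plk1, the polo-like kinase that Aurora A activates, rose from 126 and 134 CPM to 229 and 211 CPM, Cdca8 from 98.6 and 90.9 CPM to 152 and 144 CPM and Tpx2 from 361 and 348 CPM to 467 and 489 CPM. The changes of these 3 were smaller than that of Aurka. Birc5 (0.48 ± 0.12) lost its call without untreated replicate 2 (edgeR adjusted p = 0.070) and without VX680 replicate 2 (0.088), and Incenp (0.25 ± 0.10, edgeR adjusted p = 0.0476) lost its call without any one of the 4 libraries (0.052 to 0.32) and with DESeq2 (0.10). Nedd9, a scaffold that activates Aurora A at the centrosome, fell from 280.2 and 259.6 CPM to 108 and 106 CPM.

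Genes of late mitosis and division were more often higher than lower. In the cytokinesis list 8 of 13 rose and none fell: Cep55, which recruits the abscission machinery to the midbody, went from 40.9 and 31.4 CPM to 90.3 and 95.6 CPM (1.35 ± 0.13), and Anln, Ect2, Prc1 and Arhgap11a, which build the furrow and the central spindle, rose by 0.60, 0.60, 0.60 and 0.65. Without untreated replicate 2 the count was 5. In the list of the spindle checkpoint and the anaphase-promoting complex 5 of 14 rose and none fell. Its largest changes were in Cdc20, the activator of that complex, at 214 and 239 CPM and 450.2 and 410.4 CPM, and in Pttg1 (securin), at 43.5 and 36.1 CPM and 74.3 and 73.4 CPM. Among spindle motors and microtubule-binding proteins 9 of 21 rose and 3 fell. There Hmmr rose by 0.74 and Dlgap5 by 0.66 while Numa1, a spindle-pole protein, fell (-0.76). The spindle list's 9 rises became 4, 5 and 4 without untreated replicate 2, VX680 replicate 1 and VX680 replicate 2.

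Of 15 mitotic cyclins and entry regulators tested, 7 rose and 2 fell in the full fit, but 4, 2, 1 and 2 rose when untreated replicate 1, untreated replicate 2, VX680 replicate 1 or VX680 replicate 2 was left out, and 11 rose with the authors' scaling. Cdk1, the mitotic kinase, was called in every one of these settings, at 159.8 and 150.2 CPM and 223 and 221 CPM. Ccnb1, for cyclin B1, stood at 13.4 and 15.5 CPM and 22.1 and 18.5 CPM and did not pass (0.50 ± 0.21, edgeR adjusted p = 0.0679). Pkmyt1, the kinase that holds Cdk1 inactive, fell from 86.1 and 91.8 CPM to 61.3 and 58.7 CPM. Among 25 kinetochore and centromere genes 3 rose and 2 fell, shares below those of all genes. Here Cenpa, the centromeric histone, rose from 105 and 94.2 CPM to 165 and 164 CPM and its loading chaperone Hjurp fell from 323 and 311 CPM to 199.5 and 209.8 CPM. Mki67, the proliferation marker, was at 766 and 753 CPM and 632 and 613 CPM, a call (-0.29 ± 0.09, edgeR adjusted p = 0.0169) that was lost without untreated replicate 1 (0.055), VX680 replicate 1 (0.078) or VX680 replicate 2 (0.12) and with the authors' scaling (0.13).

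Of 30 replication fork and nucleotide supply genes 3 rose and 11 fell; 6 and 7 fell without untreated replicate 1 and VX680 replicate 1, and 6 fell with the authors' scaling, while 1 rose without untreated replicate 2. Prim1, a primase subunit, went from 63.2 and 47.5 CPM to 30.4 and 34.6 CPM, Pcna, the sliding clamp, from 57.5 and 51.6 CPM to 37.8 and 37.3 CPM, and Lig1, which joins Okazaki fragments, from 220.1 and 229 CPM to 146 and 166 CPM. These falls were all under 2-fold. Rrm2, a subunit of ribonucleotide reductase, rose by 0.62 ± 0.09. In the licensing list 4 of 23 fell and 2 rose, shares below those of all genes: the helicase subunit gene Mcm6 went from 221 and 189 CPM to 133 and 132 CPM, and Dbf4, the activator of the origin-firing kinase, from 92.03 and 80.6 CPM to 143 and 154 CPM. The rises numbered 3, 1, 1 and 1 when untreated replicate 1, untreated replicate 2, VX680 replicate 1 or VX680 replicate 2 was left out. The falls numbered 2, 2 and 1 without untreated replicate 1, VX680 replicate 1 and VX680 replicate 2. With the authors' scaling, and without untreated replicate 1, rises outnumbered falls by 3 to 2, and the list's median of -0.16 turned to 0.03 in the latter. Damage signalling and repair genes had 9 falls and 1 rise among 32, a share of falls near that of all genes (22.4%). Xrcc2 (18.7 and 21.7 CPM to 9.52 and 9.85 CPM) and Brca2 (109.6 and 104 CPM to 58.4 and 67.3 CPM), both of homologous recombination, led the 9 falls. That count became 4, 4 and 5 without untreated replicate 1, VX680 replicate 1 and VX680 replicate 2, and 4 with the authors' scaling, and no rise was called without any one of the 4 libraries. In the condensin, cohesin and topoisomerase list no gene rose and 5 of 18 fell, a share of falls also near that of all genes. Of these only Ncapd3 (-0.63) was called in all settings. The 5 falls became 1, 1 and 2 without untreated replicate 1, VX680 replicate 1 and VX680 replicate 2, and the median of -0.10 turned positive with the authors' scaling.

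Among cyclin-dependent kinase inhibitors the sharpest change was in Cdkn1a. It stood at 39.98 and 42.5 CPM in untreated and 356 and 341 CPM in VX680 libraries, a log2 fold change of 3.08 ± 0.10 (edgeR adjusted p = 1.54e-10). Cdkn2b, for p15, also rose, from 66.2 and 64.6 CPM to 118 and 122 CPM. The inhibitors Cdkn1b for p27 (331 and 359 CPM to 168 and 162 CPM), Cdkn1c for p57 (34.6 and 37.96 CPM to 10.996 and 11.7 CPM) and Cdkn2c for p18 (354 and 343 CPM to 208 and 215 CPM) fell. Cdkn2a, for p16 and p19ARF, was at 316 and 323 CPM and 339.7 and 352 CPM and did not pass (0.11 ± 0.08, edgeR adjusted p = 0.272). Of the cyclin D genes, Ccnd1 rose from 57.8 and 66.3 CPM to 506 and 480.1 CPM (2.997 ± 0.12, edgeR adjusted p = 9.88e-10) and Ccnd2 from 45.2 and 58.2 CPM to 202 and 201 CPM. In the list of G1/S cyclins, kinases, E2F and RB families, 5 of 19 rose and 6 fell, with E2f8, a repressor E2F, at 52.6 and 55.6 CPM and 34.2 and 31.6 CPM. The rises numbered 3 without untreated replicate 1, VX680 replicate 1 or VX680 replicate 2.

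p53 targets rose widely. Trp53, the p53 gene, was itself at 144 and 149 CPM and 202 and 201 CPM (0.46 ± 0.12, edgeR adjusted p = 0.00555; 0.050, just over the threshold, without untreated replicate 1). In the feedback list 6 of 10 rose and 1 fell. Mdm2, the ubiquitin ligase that degrades p53, went from 81.3 and 88.5 CPM to 272 and 272 CPM, and Ccng1, for cyclin G1, from 36.4 and 31.4 CPM to 231 and 237 CPM. Ppm1d, the phosphatase that restrains p53, was the fall, at 68.7 and 70.1 CPM and 46.9 and 47.3 CPM. Targets in arrest and growth control had 7 rises and 1 fall among 12, among them the kinases Plk2 (27.2 and 25.9 CPM to 141 and 138 CPM) and Plk3 (11.2 and 9.67 CPM to 32.7 and 30.6 CPM) and the antiproliferative gene Btg2 (21.6 and 17.3 CPM to 63.1 and 58.996 CPM). Sesn1, a stress-induced inhibitor of growth signalling, fell from 36.5 and 28.4 CPM to 11.5 and 14.9 CPM. Targets in repair and metabolism had 10 rises and no fall among 17, led by Dcxr (2.04), Slc19a2 (1.88), Phlda3 (1.86) and the fructose bisphosphatase gene Tigar (1.54).

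Of 12 p53 targets in cell death 9 rose and 1 fell (a call lost without untreated replicate 1, VX680 replicate 1 or VX680 replicate 2): Pmaip1 (Noxa) went from 2.901 and 2.93 CPM to 26.7 and 28.5 CPM, Bax from 54.9 and 64.3 CPM to 134 and 136 CPM, the death receptor gene Tnfrsf10b from 29.6 and 34.2 CPM to 70.7 and 72.8 CPM, and Aen, an apoptosis nuclease, from 12.8 and 16.6 CPM to 81.9 and 75.8 CPM. The X-linked ectodysplasin receptor gene Eda2r rose from 3.08 and 1.03 CPM to 19.4 and 28.2 CPM. In the wider BCL2 family 8 of 17 rose and 3 fell. There Bid rose by 1.29 ± 0.14, whereas Bmf (-4.07) and Bcl2l11, the gene for Bim (81.1 and 85.5 CPM to 17.6 and 18.9 CPM), were lower. Both Bmf and Bcl2l11 encode BH3-only activators of apoptosis.

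**Figure D2:**
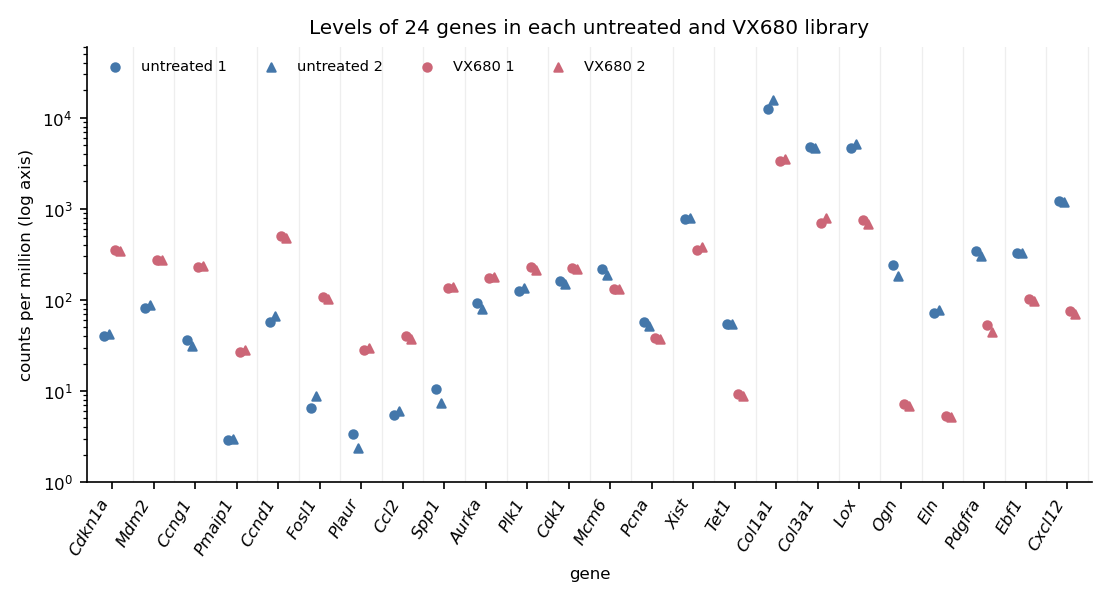
CPM (log axis) of 24 genes in untreated (blue) and VX680 (red) libraries, circles for replicate 1 and triangles for replicate 2. In every gene shown both VX680 libraries lie on the same side of both untreated ones, from Cdkn1a, at 39.98 and 42.5 against 356 and 341 CPM, to Cxcl12 at 1216 and 1193 against 75.6 and 70.05 CPM. All 24 are among the called genes, so this separation is not a separate result.

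Of 34 collagen chains tested, 19 fell and 9 rose (median log2 fold change -0.64). Fibrillar chains carry the tensile load of connective tissue, and of these Col1a1 stood at 12429 and 15550.1 CPM in untreated and 3361 and 3520.3 CPM in VX680 libraries (-2.02 ± 0.14, edgeR adjusted p = 9.61e-08). Its partner Col1a2 went from 9279 and 9887 CPM to 2777 and 2949.8 CPM, and Col3a1 from 4778 and 4653 CPM to 705 and 786 CPM. Larger falls occurred in Col14a1, which sits on fibril surfaces (199 and 169 CPM to 11.2 and 7.59 CPM), and Col11a1, a fibril nucleator (188 and 183 CPM to 17.6 and 19.3 CPM). Other chains rose: Col10a1, a hypertrophic cartilage collagen, went from 1.99 and 3.22 CPM to 19.15 and 20.4 CPM, and Col7a1, of anchoring fibrils, from 0.997 and 1.17 CPM to 7.36 and 6.93 CPM.

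Among small leucine-rich and other proteoglycans 14 of 21 fell and 2 rose (median -0.97), with 1 rise without untreated replicate 1, VX680 replicate 1 or VX680 replicate 2. Besides Ogn, Aspn (asporin) went from 315 and 247 CPM to 17.9 and 18.6 CPM, Fmod (fibromodulin) from 53.8 and 57.02 CPM to 9.03 and 7.99 CPM and Dcn (decorin) from 91.1 and 74.02 CPM to 27.98 and 25.97 CPM. Omd and Ecm2, a pair of related matrix proteins, fell by 3.88 and 3.46 on the log2 scale. The elastic fibre list had 11 falls and 1 rise among 16 (median -0.92). Eln, elastin itself, dropped from 71.1 and 78.1 CPM to 5.302 and 5.19 CPM (-3.82 ± 0.59, edgeR adjusted p = 0.000136), Fbn2 (fibrillin-2) from 313 and 349 CPM to 69.3 and 72.98 CPM and Mfap2 from 7.71 and 4.98 CPM to 1.08 and 1.46 CPM. The single rise was Ltbp2, a latent TGF-beta binding protein family member, from 40.7 and 44.999 CPM to 134 and 135 CPM.

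Enzymes that mature and cross-link collagen were divided, with 9 falls and 5 rises among 19. Lox, the lysyl oxidase that cross-links collagen and elastin, fell from 4679 and 5125 CPM to 747 and 688 CPM (-2.77 ± 0.12, edgeR adjusted p = 2.49e-09). Pcolce, an enhancer of procollagen processing, fell from 1681 and 1849 CPM to 638 and 612 CPM and the prolyl hydroxylase subunit gene P4ha3 from 76.2 and 86.5 CPM to 25.2 and 21.6 CPM. Their relatives Loxl4 (11.7 and 9.53 CPM to 36.2 and 35.8 CPM) and Pcolce2 (21.9 and 24.04 CPM to 64.8 and 69.3 CPM) rose. Of 29 metalloproteases, ADAMTS proteins and TIMPs, 20 fell and 2 rose (median -0.87). Adamts17 went from 115 and 106 CPM to 2.45 and 2.797 CPM, Mmp16 from 11.1 and 7.48 CPM to 1.67 and 1.73 CPM and Adamts20 from 24.5 and 26.5 CPM to 4.61 and 5.86 CPM. Both rises were in metalloprotease inhibitors, Timp1 and Timp3, which were named after their values were seen. In the basement membrane list 6 of 13 fell, with Lamb2 (1224 and 1281 CPM to 513 and 512 CPM) and Nid2 (518 and 483 CPM to 209 and 203 CPM) after Hmcn1. In the other direction 3 rose.

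**Figure D3:**
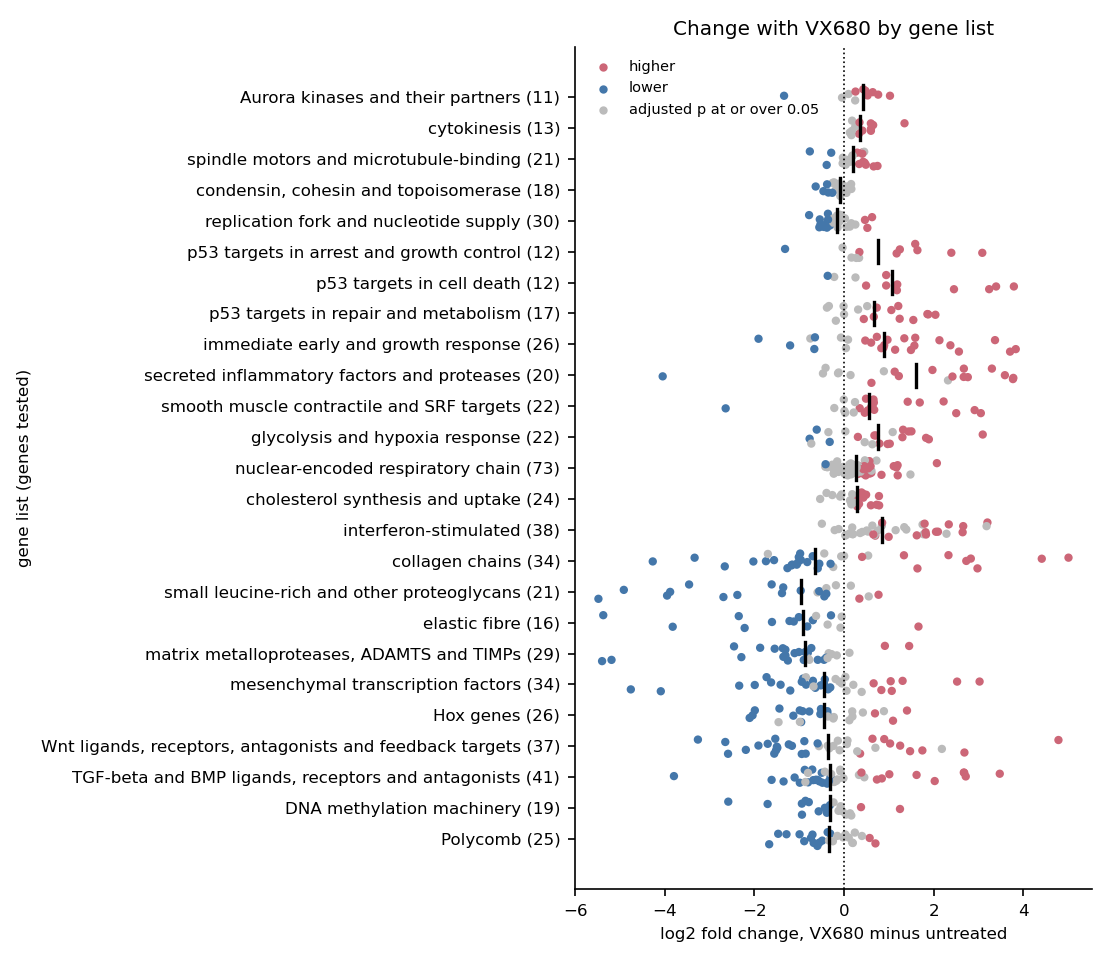
Log2 fold change (VX680 minus untreated, horizontal axis) of every tested member of 25 gene lists, one point per gene, red where higher, blue where lower and grey where the adjusted p was at or over 0.05; black bars are list medians and the dotted line is the median of all genes tested. The 4 matrix lists shown (collagens, proteoglycans, elastic fibre and matrix proteases) have medians between -0.97 and -0.64, and the 3 p53 target lists have medians between 0.66 and 1.06.

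Adhesive and matricellular glycoproteins showed no common direction, with 8 rises and 8 falls among 21. Sparcl1, a relative of osteonectin, fell from 69.5 and 75.3 CPM to 4.12 and 3.73 CPM and Matn2 (matrilin-2) from 393 and 350.2 CPM to 84.2 and 99.9 CPM. In the other direction, Spp1, which encodes osteopontin, rose from 10.5 and 7.33 CPM to 134 and 139 CPM (3.89 ± 0.30, edgeR adjusted p = 3.56e-07) and Ctgf, a YAP and TGF-beta target, from 53.9 and 63.03 CPM to 308 and 272 CPM. Without untreated replicate 1 there were 5 rises. Integrins and cadherins had 11 rises and 7 falls among 26. The collagen receptor subunit gene Itga1 fell from 85.95 and 73.3 CPM to 10.7 and 11.5 CPM and Itga8 from 40.98 and 31.95 CPM to 5.89 and 3.86 CPM, while the laminin receptor subunit gene Itga7 rose from 2.27 and 2.78 CPM to 14.5 and 13.3 CPM. Without VX680 replicate 1 there were 7 rises.

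Contractile and tubulin genes rose more often than they fell. Of 22 smooth muscle contractile and SRF target genes 15 rose and 1 fell (median 0.57). Cnn1, for calponin, went from 5.98 and 4.397 CPM to 40.8 and 39.4 CPM (2.91 ± 0.17), Tagln from 274 and 299 CPM to 759 and 773 CPM, and the smooth muscle gamma-actin gene Actg2 from 49.6 and 53.4 CPM to 166 and 164 CPM. The exception was Mylk, for myosin light chain kinase, which fell from 145 and 159 CPM to 24.8 and 23.7 CPM. Alpha and beta tubulins had 7 rises and no fall among 12, including Tubb2b (14.96 and 19.6 CPM to 60.1 and 64.3 CPM), Tuba4a (23.5 and 23.2 CPM to 56.3 and 58.5 CPM) and Tubb4b (192 and 157 CPM to 360.2 and 359.8 CPM). Tubulin genes are near-identical in sequence, so the division of reads among them is uncertain. The lamin and nuclear envelope list had 3 rises and 4 falls among 13 (median -0.10), and 3 rises and no fall with the authors' scaling. In this list Lmna, for lamins A and C, rose from 1167 and 1268 CPM to 2274 and 2222 CPM. Lmnb1, for lamin B1, stood at 332 and 384 CPM and 323 and 334 CPM (-0.12 ± 0.10, edgeR adjusted p = 0.329). Of 22 Hippo pathway and YAP target genes 10 rose and 5 fell, led by Ankrd1 and Ctgf, with Amot, a YAP-binding scaffold, falling by 1.03.

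Transcription factors that mark mesenchymal and regional identity were mostly lower, with 18 falls and 7 rises among 34 (median -0.44). After Osr2, Sox9 went from 26.8 and 28.3 CPM to 6.19 and 4.53 CPM, Foxc1 from 287 and 321 CPM to 79.6 and 72.7 CPM and Ebf1 from 330.2 and 326 CPM to 102 and 96.2 CPM. Foxc2, the close relative of Foxc1, moved oppositely, from 3.17 and 3.37 CPM to 17.4 and 20.2 CPM. Among Hox genes, which record position along the body, 13 of 26 fell and 3 rose (median -0.45). Hoxc12, of the posterior body, went from 152 and 182 CPM to 63.2 and 59.3 CPM, and Hoxc4 and Hoxc5 fell by 2.11 and 2.04. Hoxb7 rose from 9.16 and 5.42 CPM to 19.8 and 19.8 CPM, and the list had 1 rise without VX680 replicate 1.

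Growth factor ligands and receptors changed in both directions. Among receptor kinases 8 of 20 fell and 5 rose. Pdgfra, the defining PDGF receptor of fibroblasts, went from 342 and 305 CPM to 52.8 and 44.6 CPM (-2.73 ± 0.16, edgeR adjusted p = 2.95e-08). Among the rises, Ret, the GDNF family receptor, went from 2.99 and 3.37 CPM to 33.7 and 42.9 CPM, Flt1, a VEGF receptor, from 11.1 and 12.6 CPM to 81.001 and 87.2 CPM and Erbb3 from 2.81 and 2.78 CPM to 10.8 and 11.3 CPM. Secreted growth factors and IGF-binding proteins had 9 rises and 9 falls among 26. Hbegf, an EGF receptor ligand, rose from 5.89 and 4.25 CPM to 54.001 and 50.5 CPM (3.32 ± 0.16), and Ptn (pleiotrophin), Vegfc and Figf (VEGF-D) fell, from 1735 and 1802 CPM to 381 and 397 CPM, from 73.1 and 78.9 CPM to 16.6 and 15.3 CPM and from 76.9 and 72.8 CPM to 10.2 and 14.2 CPM.

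In the TGF-beta and BMP family 10 of 41 genes rose, a share near that of all genes (23.8%). In the same list 18 fell, a share above that of all genes (22.4%), and the median was -0.30. The genes named here are all rises, though falls were more numerous. Ligands and secreted antagonists were among the rises: Inhbb, an activin subunit, went from 5.44 and 5.28 CPM to 62.3 and 56.999 CPM, Gdf6 from 2.27 and 3.66 CPM to 19.7 and 17.05 CPM and Nog (noggin) from 0.907 and 1.17 CPM to 4.81 and 3.46 CPM. Acvrl1, the endothelial-type receptor ALK1, rose from 1.09 and 0.733 CPM to 6.87 and 5.59 CPM. Wnt pathway genes had 17 falls and 9 rises among 37. Secreted potentiators fell, Rspo3 from 212 and 206 CPM to 34.3 and 32.1 CPM and Rspo2 from 148 and 161 CPM to 25.04 and 26.4 CPM, as did the antagonist Dkk2 (133 and 107 CPM to 24.9 and 27.97 CPM) and the receptor gene Fzd1 (668 and 691 CPM to 188 and 174 CPM). The Wnt falls numbered 11 without VX680 replicate 1, and the rises 5 without untreated replicate 2. In the Notch and Hedgehog list 6 of 21 rose and 8 fell. Jag2 rose, as did the Notch feedback gene Nrarp (3.72 and 3.37 CPM to 14.7 and 15.6 CPM), whereas the Hedgehog co-receptor genes Gas1 (1680.1 and 1871 CPM to 455 and 439 CPM) and Cdon (204 and 213 CPM to 68.9 and 62.6 CPM) and the effector gene Gli3 (386 and 390.0 CPM to 152 and 137 CPM) fell.

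Of 26 immediate early and growth-response genes 18 rose and 4 fell (median 0.89). Fosl1, an AP-1 subunit, went from 6.44 and 8.79 CPM to 107 and 104 CPM (3.83 ± 0.22, edgeR adjusted p = 2.72e-08), the ERK-induced factor gene Etv4 from 1.904 and 5.72 CPM to 44.8 and 45.5 CPM, Myc from 27.3 and 27.4 CPM to 166 and 157 CPM and Atf3 from 0.997 and 1.76 CPM to 13.2 and 14.1 CPM. Dusp4, a phosphatase that ends ERK signalling, rose from 6.17 and 4.54 CPM to 28.6 and 28.2 CPM. The 4 falls were Egr1, Klf2, Fos and Ier2, which were named after their values were seen, and that of Fos was lost without untreated replicate 1 and without VX680 replicate 2 (edgeR adjusted p = 0.11 in each). Secreted inflammatory factors and proteases had 12 rises and 1 fall among 20, the fall being Cxcl12 (median 1.596). The urokinase receptor gene Plaur went from 3.35 and 2.35 CPM to 28.2 and 29.96 CPM (3.30 ± 0.22, edgeR adjusted p = 7.15e-08). The monocyte chemokine gene Ccl2 rose from 5.44 and 6.01 CPM to 39.7 and 37.3 CPM and the epithelial cytokine gene Tslp from 1.09 and 0.586 CPM to 12.5 and 11.99 CPM.

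Of 38 interferon-stimulated genes tested, 14 rose and none fell, with a median of 0.92 (0.85 with genes at 0 reads in a group set at their bound). The low-count filter used all 8 libraries, also those given 5azadC. With only the 4 compared libraries 28 were tested, of which 15 rose and 1 fell, with a median of 0.67. Isg15, a ubiquitin-like modifier, went from 1.99 and 2.49 CPM to 10.1 and 8.52 CPM and Bst2 (tetherin) from 11.97 and 10.99 CPM to 37.1 and 33.8 CPM. Ifit1 (6.71 and 6.596 CPM and 12.4 and 11.5 CPM) and Irf7 (0.907 and 2.64 CPM and 4.42 and 3.596 CPM) did not pass. Without untreated replicate 1, untreated replicate 2 or VX680 replicate 1 the rises numbered 5, 7 and 7. Cytosolic nucleic acid sensing genes had 2 rises and 1 fall among 12, with no rise called without untreated replicate 1, untreated replicate 2 or VX680 replicate 1. Antigen presentation and T or NK cell ligand genes had 6 rises and 4 falls among 18. The class I genes H2-K1 (7.71 and 10.1 CPM to 32.2 and 31.7 CPM) and H2-D1 (21.8 and 21.5 CPM to 63.9 and 59.8 CPM) and the peptide transporter gene Tap1 (5.71 and 6.596 CPM to 11.5 and 17.05 CPM) rose, while the loading factor gene Tapbp fell from 446 and 446 CPM to 221 and 226 CPM and the adhesion ligand gene Vcam1 from 284 and 227 CPM to 76.5 and 79.6 CPM. Class I genes are highly similar to each other and the division of their reads is uncertain.

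Genes of glucose use rose. Of 22 glycolysis and hypoxia response genes 13 rose and 3 fell (median 0.75). Hk2, an inducible hexokinase, went from 10.4 and 10.7 CPM to 39.4 and 38.9 CPM (1.89 ± 0.18), the phosphofructokinase gene Pfkp from 10.1 and 7.04 CPM to 30.5 and 31.7 CPM, and Egln3, an oxygen-sensing hydroxylase, from 0.907 and 2.05 CPM to 9.72 and 14.1 CPM. Eno1 and Pgam1 rose by 1.44 and 1.502; both have processed copies in the genome, so their counts are uncertain. Nuclear-encoded respiratory chain genes had 25 rises and 1 fall among 73 with a median of 0.27, and 14 rises without either VX680 replicate. Uqcrq, of complex III, went from 60.5 and 51.6 CPM to 119 and 124 CPM and Ndufa12, of complex I, from 6.98 and 6.45 CPM to 15.6 and 15.3 CPM. Cholesterol synthesis and uptake had 13 rises and no fall among 24 (8, 7 and 7 rises without untreated replicate 1, VX680 replicate 1 and VX680 replicate 2), all under 2-fold. Msmo1, a sterol-pathway enzyme, went from 50.1 and 43.4 CPM to 82.8 and 78.7 CPM.

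Stress responses rose in part. Among oxidative stress (NRF2) targets 9 of 14 rose and 1 fell: Txnrd1, thioredoxin reductase, went from 186 and 189 CPM to 354 and 358 CPM and Gclm, for glutathione synthesis, from 49.6 and 46.3 CPM to 90.5 and 76.04 CPM, while Nqo1, a quinone reductase, fell from 22.4 and 20.7 CPM to 11.6 and 12.8 CPM. In the integrated stress and unfolded protein response list 14 of 25 rose and 3 fell, and 9, 9 and 7 rose without untreated replicate 1, VX680 replicate 1 and VX680 replicate 2. Psat1, a serine synthesis enzyme, rose from 65.2 and 62.6 CPM to 131 and 129.8 CPM, but Aldh1l2, a mitochondrial folate enzyme, fell from 165 and 165 CPM to 26.8 and 34.5 CPM. Lysosome and autophagy genes had 15 falls and 6 rises among 35. Ctsk, the collagen-degrading cathepsin K, went from 76.4 and 80.8 CPM to 24.8 and 29.4 CPM and Gaa, the lysosomal glucosidase, from 369 and 398 CPM to 233 and 221 CPM. That list's median of -0.11 turned positive with the authors' scaling.

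The machinery of DNA methylation and of Polycomb repression fell more often than it rose. Of 19 DNA methylation genes 10 fell and 2 rose, and 6 fell without VX680 replicate 2. The TET genes, whose enzymes oxidize methylcytosine, all fell: Tet1 from 54.2 and 54.1 CPM to 9.23 and 8.79 CPM (-2.58 ± 0.25, edgeR adjusted p = 2.23e-06), Tet2 from 67.6 and 80.6 CPM to 22.9 and 22.4 CPM and Tet3 from 219.6 and 251 CPM to 125 and 119 CPM. Dnmt1, the maintenance methyltransferase, stood at 675 and 659 CPM and 623 and 641 CPM, an uncalled value of -0.08 ± 0.08 (edgeR adjusted p = 0.474) that turned to 0.03 with the authors' scaling. In the Polycomb list 13 of 25 fell and 2 rose. Ezh1 went from 49.1 and 49.98 CPM to 18.3 and 17.4 CPM, Jarid2 from 64.8 and 71.1 CPM to 28.7 and 26.9 CPM and Pcgf2 from 55.6 and 71.2 CPM to 31.5 and 31.8 CPM. Ezh1 is a histone H3 lysine methyltransferase, Jarid2 a cofactor of its complex, and Pcgf2 a subunit of the complex that ubiquitinates histone H2A.

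Imprinted genes, expressed from one parental copy, had 9 falls and 5 rises among 19. Mest fell from 21.9 and 16.1 CPM to 1.08 and 0.3995 CPM and Plagl1, a zinc-finger growth regulator, from 45.97 and 57.02 CPM to 8.35 and 6.79 CPM, whereas H19, a noncoding RNA, rose from 1.63 and 2.78 CPM to 7.76 and 9.85 CPM. The rises numbered 2, 3 and 3 without untreated replicate 1, untreated replicate 2 and VX680 replicate 2. Of 15 germline genes silenced by DNA methylation, 6 had enough reads over all 8 libraries to be tested, and 1 rose and 1 fell, Piwil2 and Brdt. With only the 4 compared libraries 1 germline gene had enough reads to be tested, and it fell (-1.18). Piwil2, named after its values were seen, had 1 read in untreated and 16 reads in VX680 libraries and lost its call without any one of the 4 libraries (edgeR adjusted p between 0.071 and 0.11). Brdt went from 7.797 and 5.72 CPM to 2.95 and 3.06 CPM and lost its call without untreated replicate 1 (0.12), VX680 replicate 1 (0.083) or VX680 replicate 2 (0.062) and with DESeq2 (0.057).

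Xist RNA was lower in VX680 libraries. It stood at 781 and 786 CPM in untreated and 357 and 378 CPM with VX680 (-1.09 ± 0.08, edgeR adjusted p = 2.54e-07). Of 12 X inactivation regulators 6 fell and 2 rose, but 3 fell without VX680 replicate 1, and the rises became 1, 1, 1 and 0 as each library was left out; Cdyl, a chromodomain corepressor, was at 40.6 and 53.2 CPM and 30.3 and 27.2 CPM. How the counting used strand is not given in the sources used here, so reads of Xist and its antisense partner Tsix cannot be told apart. Over the 404 X-linked genes tested the median log2 fold change was -0.10, with 69 higher and 102 lower. Of the X-linked housekeeping genes, Hprt rose from 6.89 and 5.42 CPM to 17.9 and 21.2 CPM (1.64 ± 0.21), Pgk1 stood at 2.18 and 1.03 CPM and 2.85 and 4.39 CPM (1.08 ± 0.46, edgeR adjusted p = 0.0682), and G6pdx at 51.1 and 49.98 CPM and 67.3 and 60.1 CPM, where the call (0.33 ± 0.11) was lost without untreated replicate 1 (edgeR adjusted p = 0.077), untreated replicate 2 (0.086) or VX680 replicate 1 (0.20) and with DESeq2 (0.065). Hprt and Pgk1 have processed copies in the genome, so their counts are uncertain.

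Allele reads show which X chromosome the RNA came from. Xist RNA was 93.2% and 90.7% mus in untreated and 90.6% and 93.2% mus in VX680 libraries, and Xist is transcribed from the silent X. Pooling the allelic reads of the other 277 genes on the X gave a mus share of 4.01% (exact 95% interval 3.83 to 4.19) and 4.05% (3.82 to 4.28) in untreated libraries. With VX680 it was 4.84% (4.63 to 5.05) and 4.96% (4.72 to 5.21). The VX680 libraries were higher by 0.874 points and did not overlap the untreated ones; a two-sided exact permutation test of 2 against 2 libraries gave p = 0.333, the smallest it can give. The 9 genes known to escape inactivation went from 15.6% and 16.3% to 19.2% and 20.3%, and without them the difference was 0.835 points. Intervals cover counting error only.

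The pooled difference was smaller once genes with mostly mus reads were set aside. Slc25a5, an ADP/ATP carrier with near-identical copies elsewhere in the genome, singled out after its values were seen, was 75.9% mus in untreated and 75.5% mus in VX680 libraries while its allelic reads went from 162 to 458, and it supplied 4.13% and 10.0% of all X-linked mus reads. Without it the pooled share differed by 0.57 points. Without the 15 genes at 50% mus or more in untreated cells the difference was 0.378 points, and with each gene weighted by its untreated reads, over 275 genes, 0.357 points. The VX680 libraries stayed above the untreated ones in each of these, at 4.37% and 4.42% against 4.01% and 4.07% with untreated weights. Gene by gene, the mus share was higher with VX680 in 102 of the 277, lower in 93 and equal in 81, and 119 genes in untreated and 124 in VX680 libraries had no mus read at all. The median gene did not differ (0 points). Chromosomes other than the X also shifted. Where the groups did not overlap, the shifts lay between -1.09 points (chromosome 8) and 1.80 points (chromosome 7). These chromosomes start from mus shares far above that of the X, so their points and those of the X are not like measures. Chromosome 14 had the lowest mean difference (-2.11 points), but its untreated libraries were at 65.7% and 69.6% and overlapped the VX680 ones, at 66.3% and 64.9%.

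**Figure D4:**
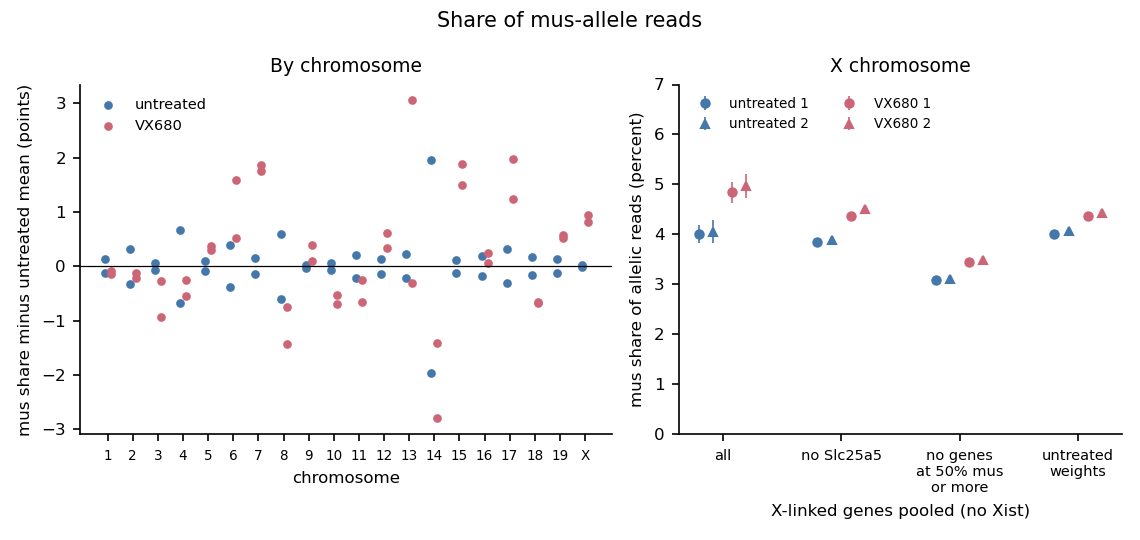
Left, the pooled mus share per chromosome as points above or below the untreated mean, in untreated (blue) and VX680 (red) libraries; right, the pooled mus share over X-linked genes without Xist, with exact 95% intervals for all 277 genes, and after the 3 ways of removing or fixing the weight of strongly mus genes. On the X the red points lie above the blue ones in all 4 versions, with a gap that narrows from 0.874 to 0.357 points. Chromosomes 6, 7, 8, 15 and 17 moved by more points than the X with no overlap between the groups. Points from different starting shares are not like measures. Untreated libraries were at 4.01% and 4.05% mus on the X and at 38.3% and 38.6% on chromosome 7.

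Single genes were tested for their ratio of mus to cas reads in 10301 genes. The mus share rose in 20 (0.194%) and fell in 19 (0.184%), 0.379% in all. On the X, 2 of 278 genes passed, both with a higher mus share, and at an unadjusted p under 0.05 there were 10 higher and 3 lower. Lamp2, a lysosomal membrane protein, had 2 and 3 mus reads beside 1268 and 847 cas reads in untreated libraries, and 12 and 13 beside 734 and 555 with VX680 (log2 change of the ratio 2.97 ± 0.56, edgeR adjusted p = 0.00251). Mid1, a microtubule-binding ubiquitin ligase near the pseudoautosomal border, had 22 and 9 mus reads beside 699 and 480 cas, and 26 and 26 beside 339 and 250 (1.76 ± 0.42, edgeR adjusted p = 0.0340). Neither call was stable: that of Lamp2 was lost without untreated replicate 1 (0.19) and VX680 replicate 2 (0.11), and that of Mid1 without any one of the 4 libraries. The total level of both genes was lower with VX680, by log2 fold changes of -0.64 for Lamp2 and -0.92 for Mid1.

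The autosomal calls, 37 in all, were led by Hist1h2bh and Hist1h2bf on chromosome 13. Their mus share went from 28.4% to 99.2% and from 24.4% to 98.2%, and 4 of the called genes belong to the same replication-dependent histone cluster, whose members are near-identical copies, so these ratios are uncertain. Hist1h2bh rested on 128 mus reads and 1 cas read in the VX680 libraries, and its call was lost without VX680 replicate 1 (edgeR adjusted p = 0.052). Vcan, a large proteoglycan, went from 39.0% and 38.9% mus to 61.9% and 55.0% (log2 change 1.15 ± 0.13, edgeR adjusted p = 9.77e-08). Postn (periostin) went from 36.4% and 38.1% to 54.3% and 52.97%, and Spp1 from 25% and 15% to 47.9% and 49.1%. Lrp1, an endocytic receptor, was 7.21% and 5.32% mus in untreated and 12.4% and 10.4% mus in VX680 libraries. Of the 39 calls, 13, 22, 17 and 13 were kept in the same direction without untreated replicate 1, untreated replicate 2, VX680 replicate 1 and VX680 replicate 2, when 19, 26, 22 and 17 genes were called in all. Those of Hist1h2bf, Vcan, Lrp1, Postn and Spp1 were kept each time.

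VX680 was also set against the other single drug. In VX680 minus 5azadC, 818 genes were higher (6.47%) and 1180 lower (9.33%) by the same edgeR test; without VX680 replicate 1 and replicate 2 they were 269 and 298 higher and 546 and 503 lower. This comparison shares the VX680 libraries with the one above. The clearest group was that of interferon-stimulated genes, of which 37 of 38 were lower with VX680 than with 5azadC and none higher. The low-count filter used all 8 libraries, and 28 of these genes were tested with the untreated and VX680 libraries alone. Members that passed only through libraries given 5azadC could hardly come out otherwise, so the count overstates the contrast. Isg15 stood at 217 and 111 CPM with 5azadC and 10.1 and 8.52 CPM with VX680 (-4.13 ± 0.27, edgeR adjusted p = 9.07e-07), Ifit1 at 272 and 138 CPM and 12.4 and 11.5 CPM, Irf7 at 156 and 67.9 CPM and 4.42 and 3.596 CPM and Parp14 at 156 and 66.1 CPM and 7.95 and 7.19 CPM. Dhx58, a regulator of RNA sensing, was at 113 and 58.4 CPM and 4.61 and 3.196 CPM. Antigen presentation genes followed, with 13 of 18 lower. Outside these groups Olfml2a was lower with VX680, at 10.5 and 7.41 CPM and 0.884 and 0.266 CPM.

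Among the mitotic lists, 10 of 13 cytokinesis genes, 11 of 21 spindle genes and 5 of 11 Aurora kinases and partners (1 lower) were higher with VX680 than with 5azadC. The counts were lower in the other lists, with 4 of 15 mitotic entry genes (1 lower), 3 of 14 checkpoint genes, 3 of 25 kinetochore genes (1 lower), 2 of 15 centrosome genes and none of 18 condensin, cohesin and topoisomerase genes. Aurka was at 101 and 91.2 CPM with 5azadC and 173 and 179 CPM with VX680 (0.87 ± 0.10, edgeR adjusted p = 6.82e-05), and Cep55 at 55.7 and 48.7 CPM and 90.3 and 95.6 CPM. The largest differences in this direction were in Gdf6 (0.892 and 1.51 CPM and 19.7 and 17.05 CPM), Serpinb9b (1.34 and 1.097 CPM and 13.7 and 13.6 CPM), Ndrg2 (4.25 on the log2 scale), Arap3 (3.51), Cox6b2 (3.37) and Stard8, which had 3 reads in the 5azadC and 47 reads in the VX680 libraries. Collagen chains were lower with VX680 than with 5azadC in 15 of 34 and higher in 3. Among the lower ones, Col1a1 was at 5972 and 8067 CPM with 5azadC and 3361 and 3520.3 CPM with VX680. Col3a1 was at 1249 and 2091 CPM and 705 and 786 CPM. Cdkn1a was at 274 and 293 CPM with 5azadC and 356 and 341 CPM with VX680 (0.30 ± 0.08, edgeR adjusted p = 0.0290). In the p53 feedback list 1 of 10 genes was higher with VX680 than with 5azadC and none lower. In arrest and growth control 2 of 12 were higher and 2 lower, and in cell death 2 of 12 were higher and 1 lower. In repair and metabolism none of 17 was higher and 3 were lower. Most genes of these lists did not pass this test, such as Bax (133 and 145 CPM with 5azadC and 134 and 136 CPM with VX680, a difference of -0.04 ± 0.10, edgeR adjusted p = 0.825) and Ccng1 (213 and 245 CPM and 231 and 237 CPM, 0.03 ± 0.11). A p over the threshold does not show that they are equal. Xist was at 405 and 426 CPM with 5azadC, a difference of -0.18 ± 0.08 (edgeR adjusted p = 0.169).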

How the data were processed

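RNA-seq libraries of untreated and VX680-treated cells, with 2 samples each, were compared. Per the submitters' processing notes the authors used the mm9 build, TopHat2 2.0.10, HOMER 4.8 and edgeR; the steps each tool served and the use of strand in counting are not given in the sources used here. The authors deposited raw read counts per gene, allele-assigned read counts, and a normalized signal equal to the counts times 1 factor per library. The low-count filter was edgeR's default, run over all 8 libraries. Genes passing it were fitted with edgeR 4.0.16 (R 4.3.3, TMM scaling, 1 mean per group over all 8 libraries, quasi-likelihood test). P-values were adjusted by Benjamini-Hochberg at 0.05. SE is the absolute log2 fold change over the root of F. The mus to cas ratio was fitted on genes averaging at least 10 allelic reads. Alternatives used DESeq2 1.42.0, limma 3.58.1 on log2(signal + 1), other filters, only the compared libraries, a replicate block, and each library left out. Scripts were tested on simulated data. Intervals are exact (Clopper-Pearson, 95%). Named genes were the first 12 rises and falls, the 6 smallest p in each direction, and the first 6 in each direction against 5azadC. All of these were ranked among called genes whose groups did not overlap. Up to 5 called members of each gene list, a set of always-named genes and the first 6 in each allelic class were added. The ranked genes and list members, but not the always-named or allelic ones, had a mean log2 CPM not under 1. The genes and lists were chosen with earlier results of these data known. Some items withheld for evaluation are not reported here.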

Additional observations from a re-analysis of the deposited data

How the results depend on the processing

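In the comparison with untreated cells 4913 genes were called with DESeq2, 6081 with no low-count filter, 5790 with limma on the authors' signal and 6419 with only the 4 libraries fitted, against 5834, and leaving out 1 library gave 4120 to 6665. No gene called in both fits reversed in any of these. Of the 310 named genes called, 252 held in every alternative; the uncalled Dnmt1 turned to 0.029 with limma on the authors' signal. Against 5azadC the total was 1283 with only the 4 libraries fitted and 801 to 2482 with 1 library left out; the higher genes numbered 1230 with limma, 491 with the 4 libraries and 269 to 1017 with 1 left out, and the lower genes 731 with limma and 503 to 1465 with 1 left out. Genes with a changed mus to cas ratio numbered 17 to 46 with 1 library left out, and X-linked ones 0 to 3. The X-linked difference in mus share was -1.539 points with Xist kept in the pool, 0 as a median over genes and 0.813 to 0.934 with 1 library left out; it was 0.57 without Slc25a5, 0.378 without genes at 50% mus or more and 0.357 with untreated weights, 3 alternatives chosen after seeing the data. With the replicate number as a block 5695 genes were called, 2918 higher and 2777 lower. The replicate numbers were not taken to pair the samples: the correlation of replicate differences was -0.1477 between untreated and VX680 and ran from -0.1513 to 0.1041 over all pairs of groups. With crossed numbers, also chosen after seeing the data, 5914 were called. With 2 libraries a group, a permutation test of 1 value cannot go below p = 0.333.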

Other observations

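Change with VX680 differed with gene length as the deposited table lists it. When the genes tested were divided into 5 groups by length, the median log2 fold change was 0.15 in the shortest group, then 0.10, 0.03 and -0.06, and -0.16 in the longest. In the shortest group 660 genes were higher and 317 lower, and in the longest 482 were higher and 924 lower. Matrix genes and several other lists described above hold genes of differing length, and the part of length in their values was not tested. Among 74 cytosolic ribosomal protein genes, which are short, 21 rose and 3 fell with a median of 0.25. That share of rises was not far above that of all genes (23.8%). Fewer rises were called without untreated replicate 2 or VX680 replicate 1. Ribosomal protein genes have many processed copies, so their counts are uncertain.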
